A study of Rattus norvegicus with 6 samples.

Results

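Genes named for the moving apparatus of motile cilia, some of them also known from primary cilia, were examined in the amygdala of rats given saline or ethanol. They were chosen by symbol: the Dnah and Dnai genes (heavy and intermediate chains of axonemal dynein), the Dnaaf genes (factors that assemble dynein arms), the Rsph genes (radial spoke proteins), the Drc genes (nexin-dynein regulatory complex) and the Cfap genes (cilia and flagella associated proteins). A gene was included when at least 3 of the 6 libraries held at least 10 counts for it. Of 38445 genes in the count tables, 87 carried such a symbol and 82 met the count rule: 44 Cfap, 13 Dnah, 10 Dnaaf, 6 Rsph, 5 Dnai and 4 Drc genes. They lie on 20 chromosomes.

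The RNA came from the amygdala of adult male Sprague Dawley rats, all wild type, of which 6 were injected intraperitoneally with saline (control) and 6 with ethanol at 1 g/kg. Tissue was collected 1 h after the injection. Total RNA of 2 rats was pooled for each library, which gave 3 control and 3 ethanol libraries of stranded mRNA, sequenced as single-end reads of 100 nt. Between 62576504 and 70755739 reads were assigned to genes per library, and levels are given as CPM, the counts of a gene scaled to a common library total, after TMM scaling between libraries. The pools are separate samples of each group, so the p-values measure the spread between pools and not between single rats.

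A motile cilium is built on an axoneme, a ring of microtubule doublets around a central pair. Outer and inner dynein arms on the doublets generate sliding, the radial spokes and the central apparatus regulate the arms, and the nexin-dynein regulatory complex links neighboring doublets and helps to turn sliding into bending. In the brain, beating tufts of such cilia are found on ependymal cells, which line the ventricles, and the choroid plexus epithelium that lies inside the ventricles also carries cilia with axonemal proteins. The amygdala borders the temporal horn of the lateral ventricle. Neurons and astrocytes typically bear a single primary cilium without dynein arms. In bulk tissue, fewer cells of a type and less RNA per cell cannot be told apart.

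Ciliary genes are known targets of RFX transcription factors, so promoter letters are shown for the members that stood out most in the comparison below. RefSeq windows on GRCr8 were matched by gene identifier for 71 of the 82 genes and for none of the other 11. The last 100 bases before the transcription start, 5′ to 3′ on the gene's strand, are given for the member with the smallest p-value, Dnah1 (chr16:6523447-6523546, minus strand), and for the 4 of the 10 members with the smallest p-values whose stretch holds the RFX half-site GTTGCC on either strand. These are Cfap44 (chr11:69789906-69790005, minus strand), Dnaaf6 (chrX:108512902-108513001, plus strand), Cfap161 (chr1:147177822-147177921, minus strand) and Cfap46 (chr1:203912387-203912486, minus strand). Capitals mark the half-site, which reads GGCAAC where it lies on the opposite strand.
Dnah1: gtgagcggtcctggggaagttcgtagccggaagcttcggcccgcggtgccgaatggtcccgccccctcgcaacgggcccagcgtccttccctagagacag
Cfap44: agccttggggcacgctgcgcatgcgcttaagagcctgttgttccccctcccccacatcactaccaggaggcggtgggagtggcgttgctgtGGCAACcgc
Dnaaf6: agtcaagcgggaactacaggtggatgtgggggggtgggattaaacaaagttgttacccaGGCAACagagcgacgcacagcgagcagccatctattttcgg
Cfap161: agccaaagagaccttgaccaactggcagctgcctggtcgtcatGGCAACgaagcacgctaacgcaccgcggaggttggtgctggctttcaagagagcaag
Cfap46: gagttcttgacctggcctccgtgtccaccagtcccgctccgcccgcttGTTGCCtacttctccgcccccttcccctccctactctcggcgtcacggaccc
The half-site begins at base -9 in Cfap44, -41 in Dnaaf6, -57 in Cfap161 and -52 in Cfap46, counted back from the start, and the letters are not in the Dnah1 stretch. Over 250 bases before the start, 21 of 71 members (29.6%) held the half-site in the first window listed, compared with 9.9% of 27457 genes. The share was 33.3% (11 of 33) in members that were lower after ethanol at an unadjusted p below 0.05 and 26.3% (10 of 38) in the other members. The forkhead core TGTTTA, searched on both strands because Foxj1 is a forkhead factor of motile cilia, was present in 12.7% of the members' first windows and in 12.2% of those of all genes. Neither motif contains the other, and a match is a description of the sequence only.

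Levels of the members spanned a wide range. Expressed per kb of exon, so that genes can be compared, the mean over the 6 libraries ran from 0.0558 CPM per kb for Dnah14, an inner arm heavy chain gene, to 110 CPM per kb for Cfap36, whose protein binds the small GTPase Arl3 of primary cilia. Cfap20 (40.5 CPM per kb), which sits at the inner junction of the doublet and is also found in primary cilia, Cfap298 (38.9 CPM per kb) and Dnaaf9 (28.5 CPM per kb), both assembly factors, and Drc1 (22.4 CPM per kb), a base-plate subunit of the nexin-dynein regulatory complex, followed. The 10 members with the highest level per kb held 53.4% of the summed CPM of the 82 genes. Of the 5 genes left out, Rsph4a (a radial spoke head gene), Cfap58 and Cfap418 had 0 counts in all 6 libraries. For counting error alone a 0 allows up to 3 counts, or 0.0424 to 0.0479 CPM, per library. Whether the gene models used for counting could collect reads of these 3 genes was not checked, so the 0 is not read as absent expression. Just under the rule lay Cfap68 with 18 counts in total and Cfap97d1 with 17. Just inside it lay Cfap107 with 73 counts in total, reaching 10 in 2 control and 2 ethanol libraries, and Cfap157 with 177.

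The comparison asks which of these transcripts differed 1 h after ethanol. Most members lay lower in the ethanol libraries, and among the 6 symbol families the Dnah genes had the most negative median log2 fold change (-0.47), followed by the Cfap and Drc genes (both -0.33). The log2 fold change (ethanol minus control) was below 0 in 72 of the 82 genes and above 0 in 10, with a median of -0.28 and a range from -1.44 to 0.25, whereas the median over the 18141 genes tested was 0.0064. At an unadjusted p below 0.05 in edgeR's quasi-likelihood test, 35 members were lower (42.7%), compared with 2.58% of all genes tested. By the same measure 0 members were higher, compared with 1.57% of all genes. All 3 ethanol libraries lay below all 3 control libraries in 35 members, against 5.19% of all genes, and above them in 1 member, against 3.65% of all genes. A total of 30 members were both lower at this p and without overlap. After Benjamini-Hochberg adjustment over the 18141 genes, 0 members and 0.0% of all genes had an adjusted p below 0.2 (edgeR quasi-likelihood), the smallest being 0.818. At that threshold DESeq2 called 14 members, all lower, among 75 genes called in all (0.413%). The edgeR likelihood ratio test called 11, all lower, among 77 (0.424%), and limma-voom called 0. Without control 2, the library with the highest values, 26 members were lower at an unadjusted p below 0.05, against 2.03% of all genes.

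**Figure D1:**
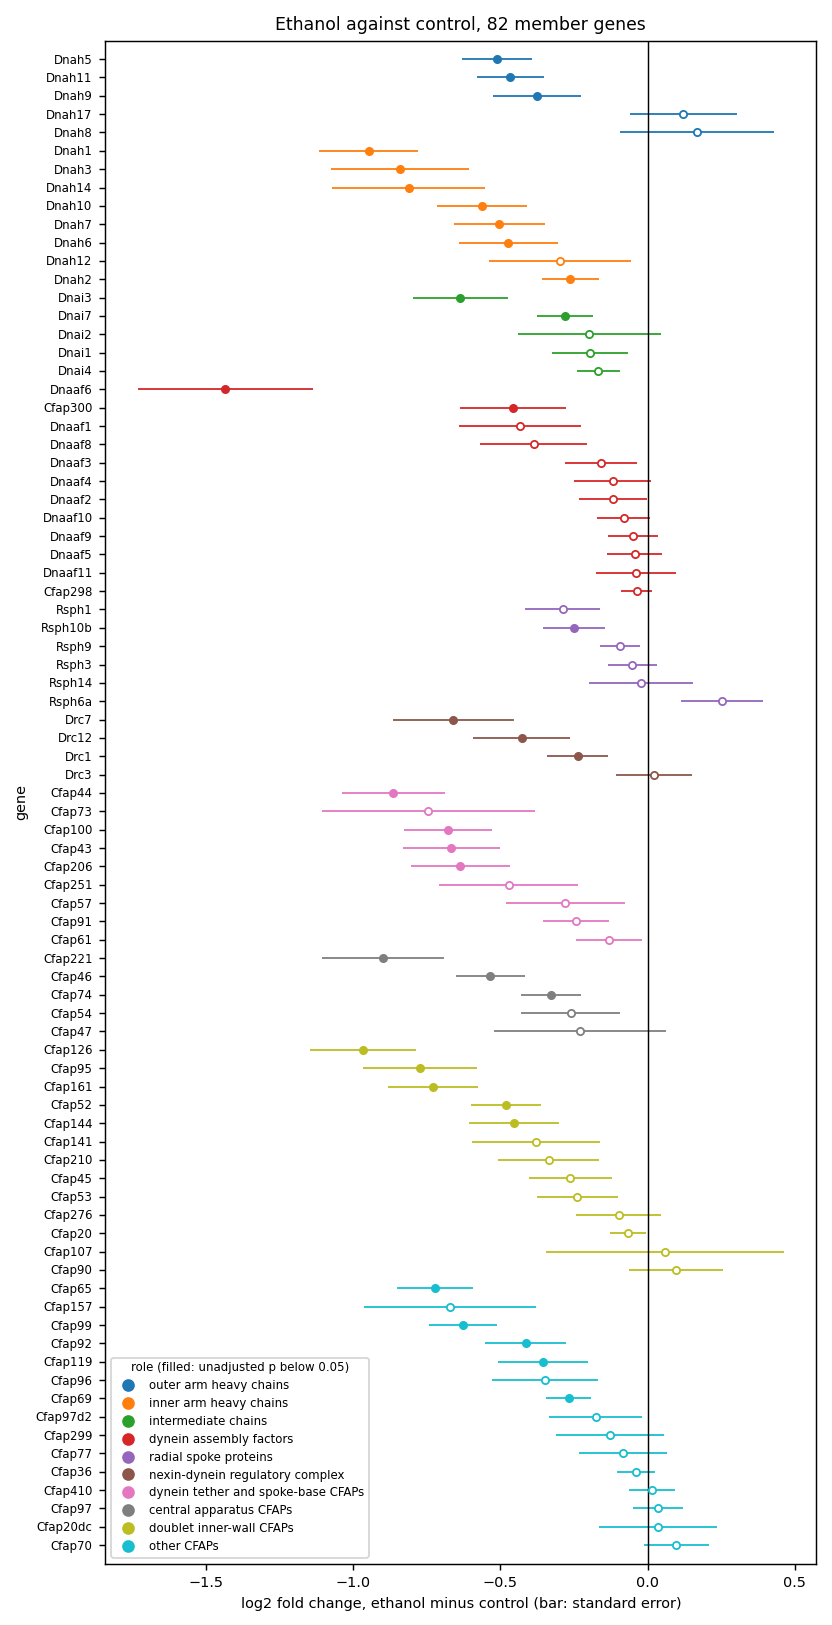
Log2 fold change (ethanol minus control, horizontal axis) of each of the 82 genes with its standard error as a bar, ordered by role; filled points have an unadjusted p below 0.05. Points lie to the left of 0 for 72 genes, and each of the 35 filled points is on that side.

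The member with the smallest p-value was Dnah1, an inner arm heavy chain gene (Rnor_6.0 chr16:7345131-7407009, minus strand). Its level was 4.54, 6.56 and 5.16 CPM in control libraries 1 to 3 and 2.45, 3.11 and 2.87 CPM in the ethanol libraries. The groups did not overlap, and the ethanol mean (2.81 ± 0.336 CPM, SD, n = 3) was 51.8% of the control mean (5.42 ± 1.03 CPM, n = 3). The log2 fold change was -0.95 (SE 0.168, unadjusted p = 0.000553, adjusted p = 0.818 in edgeR). The other 7 inner arm heavy chain genes also had fold changes below 0, and the median of the role was -0.53. Of the 8 genes, 7 were lower at an unadjusted p below 0.05, compared with 2.58% of all genes tested. Dnah14 (log2 fold change -0.81), Dnah3 (-0.84), Dnah10 (-0.56), Dnah7 (-0.50), Dnah6 (-0.47) and Dnah2 (-0.26) made up the rest of these 7. In each of the 7, the highest ethanol library lay below the lowest control library, as it did in 5.19% of all genes tested. Without control 2 the fold change of Dnah6 was -0.29 (unadjusted p = 0.0848).

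Dnah12, the inner arm gene with the highest level per kb, was the exception. It measured 23.7, 24.2 and 28.2 CPM in the control libraries and 15.9, 15.9 and 30.1 CPM in the ethanol libraries. Ethanol 1 and 2 were thus far below control, while ethanol 3 was the highest of all 6. The log2 fold change was -0.30 (SE 0.242, unadjusted p = 0.254), and the value depended on the library left out. It was -0.14 without ethanol 1 and -0.14 without ethanol 2. Without ethanol 3 it was -0.68 with an adjusted p of 0.109 in edgeR. That fit called 1 of the 82 members and 83 of 18356 genes (0.452%).

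The outer arm heavy chains divided by gene. Dnah5 encodes the gamma heavy chain of the outer arm and is often mutated in primary ciliary dyskinesia. It measured 4.47, 5.32 and 5.13 CPM in control and 3.52, 3.25 and 3.69 CPM in ethanol libraries (log2 fold change -0.51, SE 0.119, unadjusted p = 0.00282). Dnah11, a heavy chain of the proximal part of the cilium, measured 7.07, 8.62 and 8.77 CPM in control and 5.72, 6.11 and 5.88 CPM in ethanol libraries (-0.47, SE 0.113, unadjusted p = 0.00347). In neither gene did the groups overlap. Dnah9, the outer arm heavy chain gene with the highest level per kb, measured 46.6, 69.9 and 48.6 CPM in control and 39.3, 43.7 and 44.1 CPM in ethanol libraries (-0.38, SE 0.15, unadjusted p = 0.0376), without overlap but with control 2 far above the other controls. Without control 2 the fold change of Dnah9 was -0.17. Dnah8 and Dnah17 are known as the outer arm heavy chains of the sperm flagellum, and their fold changes were 0.17 and 0.12, with unadjusted p-values of 0.538 and 0.520. Their control and ethanol values overlapped.

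Among the 5 intermediate chain genes the median log2 fold change was -0.20. At an unadjusted p below 0.05, 2 genes were lower, against 2.58% of all genes tested. Dnai3 (-0.64) belongs to the inner arm, and Dnai7 (-0.28) measured 10.1, 10.4 and 10.9 CPM in control and 7.78, 8.91 and 9.16 CPM in ethanol libraries. Dnai4 had the highest level per kb of this role, with 32.3 to 36.1 CPM in control and 28.4 to 32.1 CPM in ethanol libraries. Its groups did not overlap although its unadjusted p was 0.0536. The outer arm genes Dnai1 (-0.20) and Dnai2 (-0.20) overlapped between groups.

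The 12 dynein assembly factors act in the cytoplasm, where they fold and preassemble the arms, and they held the most negative fold change among the members. Dnaaf6 is X-linked (chrX:111389557-111439399 in Rnor_6.0, plus strand). It measured 0.642, 1.04 and 1.31 CPM in control and 0.327, 0.342 and 0.431 CPM in ethanol libraries. All ethanol values were below all control values, though control 1 lay nearer to the ethanol libraries than to control 3. The log2 fold change was -1.44 (SE 0.298, unadjusted p = 0.00145, adjusted p = 0.818), on 272 counts in total. Cfap300 (-0.46, unadjusted p = 0.0359) was the only other factor lower at that threshold, and the median of the role was -0.12. Cfap298 measured 45.6, 45.4 and 45.5 CPM in control and 43.6, 45.3 and 44.2 CPM in ethanol libraries, a log2 fold change of -0.04. Dnaaf9, at 186 to 212 CPM in control and 174 to 206 CPM in ethanol libraries, had a fold change of -0.05.

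The radial spoke proteins lay closest to control of the 10 roles. Their median log2 fold change was -0.07, and of the 6 genes Rsph10b (-0.25, unadjusted p = 0.0469) was lower at that threshold, with groups that overlapped. Rsph9, a spoke head gene, measured 25.9, 28.8 and 26.9 CPM in control and 26.5, 25.3 and 24.7 CPM in ethanol libraries. Rsph1, also of the spoke head, measured 7.71, 10.2 and 9.18 CPM in control and 7.51, 7.93 and 6.71 CPM in ethanol libraries (-0.29, unadjusted p = 0.0526). In both genes 1 ethanol library reached into the control range. Rsph6a, the paralog of Rsph4a known from testis, was the single member with all ethanol libraries above all controls, at 1.82, 1.70 and 1.77 CPM in control and 2.37, 2.01 and 1.94 CPM in ethanol libraries. Its log2 fold change of 0.25 (SE 0.140) had an unadjusted p of 0.108, and without ethanol 1 it was 0.16.

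Among the 4 genes with a Drc symbol, Drc7 (-0.66), Drc12 (-0.43) and Drc1 (-0.24) were lower at an unadjusted p below 0.05. Over all genes tested 2.58% were. Drc3 had a fold change of 0.02. Genes of the nexin-dynein regulatory complex under other symbols are not in this role. Drc1 measured 53.8, 66.0 and 58.5 CPM in control and 50.5, 44.9 and 55.8 CPM in ethanol libraries. Ethanol 3 lay within the control range, and the unadjusted p of 0.04998 was at the threshold. Without control 2 the fold change was -0.15 (unadjusted p = 0.174). Drc3 shares 86 bp of exon with another gene on its strand, where reads had not been counted.

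The Cfap genes of inner dynein tethers or radial spoke bases had the most negative median of the 10 roles (-0.64 over 9 genes). At an unadjusted p below 0.05, 4 were lower, against 2.58% of all genes tested. Cfap44 and Cfap43 form the tether of an inner arm dynein. Cfap44 (Rnor_6.0 chr11:61160793-61237056, minus strand) measured 8.02, 12.8 and 10.8 CPM in control and 6.42, 5.30 and 5.65 CPM in ethanol libraries (-0.86, SE 0.174, unadjusted p = 0.00122). Cfap43 had a fold change of -0.67 (unadjusted p = 0.00392). Cfap100, which binds doublets beside inner dyneins together with Cfap73, measured 4.47, 5.59 and 5.52 CPM in control and 3.13, 2.85 and 3.75 CPM in ethanol libraries (-0.68, SE 0.15, unadjusted p = 0.00207). The groups of these 3 genes did not overlap. Cfap206 (-0.64), of a spoke base, was likewise below control in every ethanol library. Cfap73 (-0.75), Cfap251 (-0.47), Cfap57 (-0.28), Cfap91 (-0.24) and Cfap61 (-0.13) had unadjusted p-values above 0.05. Without control 2 the fold changes were -0.31 for Cfap73, -0.16 for Cfap251 and -0.15 for Cfap91, and without ethanol 3 that of Cfap57 was -0.12. Cfap251 had the largest control SD of the role, 4.48 CPM, from values of 8.63, 17.5 and 11.8 CPM.

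All 5 Cfap genes assigned here to the central apparatus had fold changes below 0 (median -0.33). Cfap46, next after Cfap74 in level per kb, measured 9.70, 12.9 and 10.8 CPM in control and 7.73, 7.45 and 7.87 CPM in ethanol libraries (-0.54, SE 0.118, unadjusted p = 0.00203). Cfap221 measured 0.872, 0.972 and 0.868 CPM in control and 0.374, 0.529 and 0.546 CPM in ethanol libraries (-0.90, SE 0.207, unadjusted p = 0.00266). The 3 ethanol values of Cfap46 differed little from one another, and in both genes they were all below control. Cfap74 (-0.33, unadjusted p = 0.0133) also had groups without overlap, whereas those of Cfap54 (-0.26) and Cfap47 (-0.23) overlapped. Without control 2 these fold changes were -0.04 and 0.11.

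Of the 13 Cfap genes of the doublet wall, 5 were lower at an unadjusted p below 0.05, against 2.58% of all genes. The median of the role was -0.34. Cfap126, also called Flattop, measured 4.77, 7.20 and 6.42 CPM in control and 2.65, 3.23 and 3.52 CPM in ethanol libraries. The ethanol mean was 51.1% of control (-0.97, SE 0.181, unadjusted p = 0.000774). Cfap161 measured 2.11, 2.55 and 2.51 CPM in control and 1.42, 1.62 and 1.29 CPM in ethanol libraries (-0.73, SE 0.154, unadjusted p = 0.00159), again without overlap. Cfap95 (-0.77), Cfap52 (-0.48) and Cfap144 (-0.45) were the other lower genes. At the other end, Cfap20 measured 50.6, 52.5 and 51.4 CPM in control and 51.2, 50.2 and 46.2 CPM in ethanol libraries (-0.07), and Cfap90 had a fold change of 0.10 and Cfap107 one of 0.06.

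Among the 15 other Cfap genes, Cfap65 and Cfap99 had the smallest p-values. Cfap65, known for its need in sperm flagella, measured 8.35, 11.5 and 9.50 CPM in control and 6.00, 6.06 and 5.75 CPM in ethanol libraries (-0.72, SE 0.129, unadjusted p = 0.000585). Cfap99 measured 10.3, 13.0 and 13.3 CPM in control and 8.01, 8.11 and 7.57 CPM in ethanol libraries (-0.63, SE 0.115, unadjusted p = 0.000672). For both genes the spread among ethanol libraries was smaller than that among controls, and no ethanol value reached a control value. Cfap36 measured 182, 160.5 and 173 CPM in control and 169.6, 165 and 167 CPM in ethanol libraries, so that its ethanol values lay inside the control range (-0.04, unadjusted p = 0.565). Cfap410, found at the base of primary cilia, had a fold change of 0.02, and Cfap70, an outer arm associated protein, had one of 0.10 with an unadjusted p of 0.398.

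**Figure D2:**
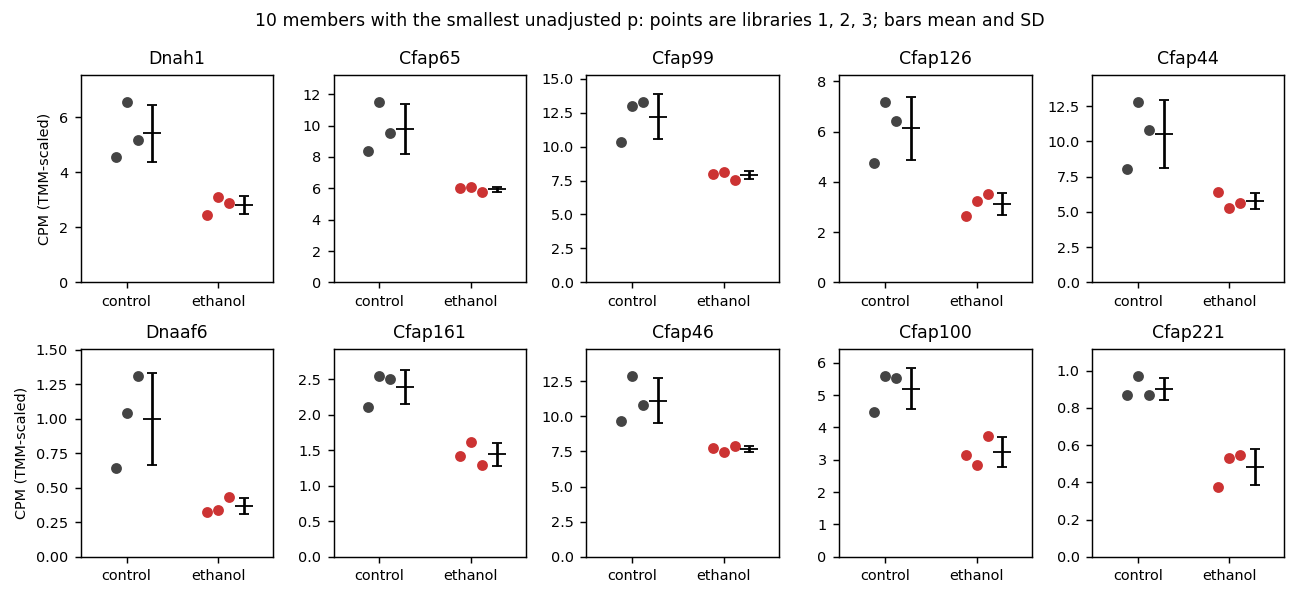
CPM (vertical axis, from 0) of the 10 members with the smallest unadjusted p-values; points are the libraries of each group and bars are the mean and SD of 3 libraries. In each panel the 3 ethanol points lie below the 3 control points, with Dnah1 at 2.45 to 3.11 CPM after ethanol and 4.54 to 6.56 CPM in control.

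For each of these 10 genes a 2-sided exact permutation test over the 6 libraries gave p = 0.1, the smallest value that 3 against 3 libraries allow. Their adjusted p-values in edgeR were 0.818, except 0.850 for Cfap221.

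The fold changes varied with the level of the gene. The 27 members of the lowest tertile of level (0.0558 to 0.796 CPM per kb) had fold changes with a median of -0.43 (log2), and 12 of them were lower at an unadjusted p below 0.05. In the middle tertile the median was -0.36 with 14 of 27 lower, and in the highest (2.93 to 110 CPM per kb) it was -0.12 with 9 of 28 lower. Over all genes tested 2.58% were lower at that threshold, and this share was not computed by level. Of the 10 members with the highest level per kb only Drc1 was lower at that threshold, and their fold changes ran from -0.24 to 0.10. This is a description across genes, which are not independent replicates. The 10 members with the highest level include Cfap36, Cfap20 and Cfap410, also known from primary cilia. They also include the assembly factors Cfap298 (-0.04) and Dnaaf9 (-0.05) and the spoke head gene Rsph9 (-0.09). Whether such roles relate to the fold changes was not tested.

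**Figure D3:**
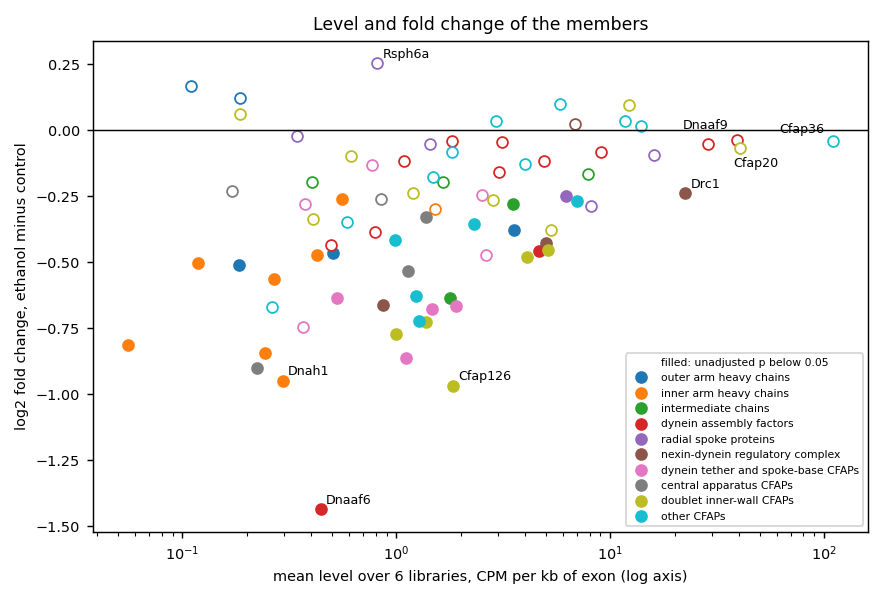
Mean level over the 6 libraries (CPM per kb of exon, horizontal log axis) against log2 fold change (ethanol minus control, vertical axis) for the 82 genes, colored by role and filled where the unadjusted p is below 0.05. Genes such as Cfap36, Cfap20, Cfap298 and Dnaaf9 at the right lie near 0, and Dnaaf6 is lowest at -1.44.

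The libraries within each group differed as well. Relative to the mean of the controls, the median log2 level of the 82 genes was -0.13, 0.12 and -0.01 in control libraries 1 to 3 and -0.30, -0.24 and -0.35 in the ethanol libraries. Every ethanol library therefore had a median below that of every control library. Control 2 was the highest control in 56 of the 82 genes (68.3%, against 38.1% of all genes tested) and the highest of all 6 libraries in 50. Ethanol 3 was the lowest of the 6 libraries in 37 genes, ethanol 1 in 22 and ethanol 2 in 15. Ethanol 3 was below all controls in 61 genes, ethanol 1 in 52 and ethanol 2 in 50. For single libraries that share over all genes was not computed. Among the ethanol libraries, ethanol 3 was lowest in 41 members, ethanol 1 in 23 and ethanol 2 in 18. Over all genes tested, ethanol 3 was the lowest ethanol library in 38.1%, ethanol 1 in 29.25% and ethanol 2 in 32.6%. Ethanol 3 was also the highest ethanol library in 41.2% of all genes. The summed CPM of the members, weighted by the abundant genes, was 1178, 1291 and 1248 in control and 1101, 1087 and 1120 in ethanol libraries, also without overlap.

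**Figure D4:**
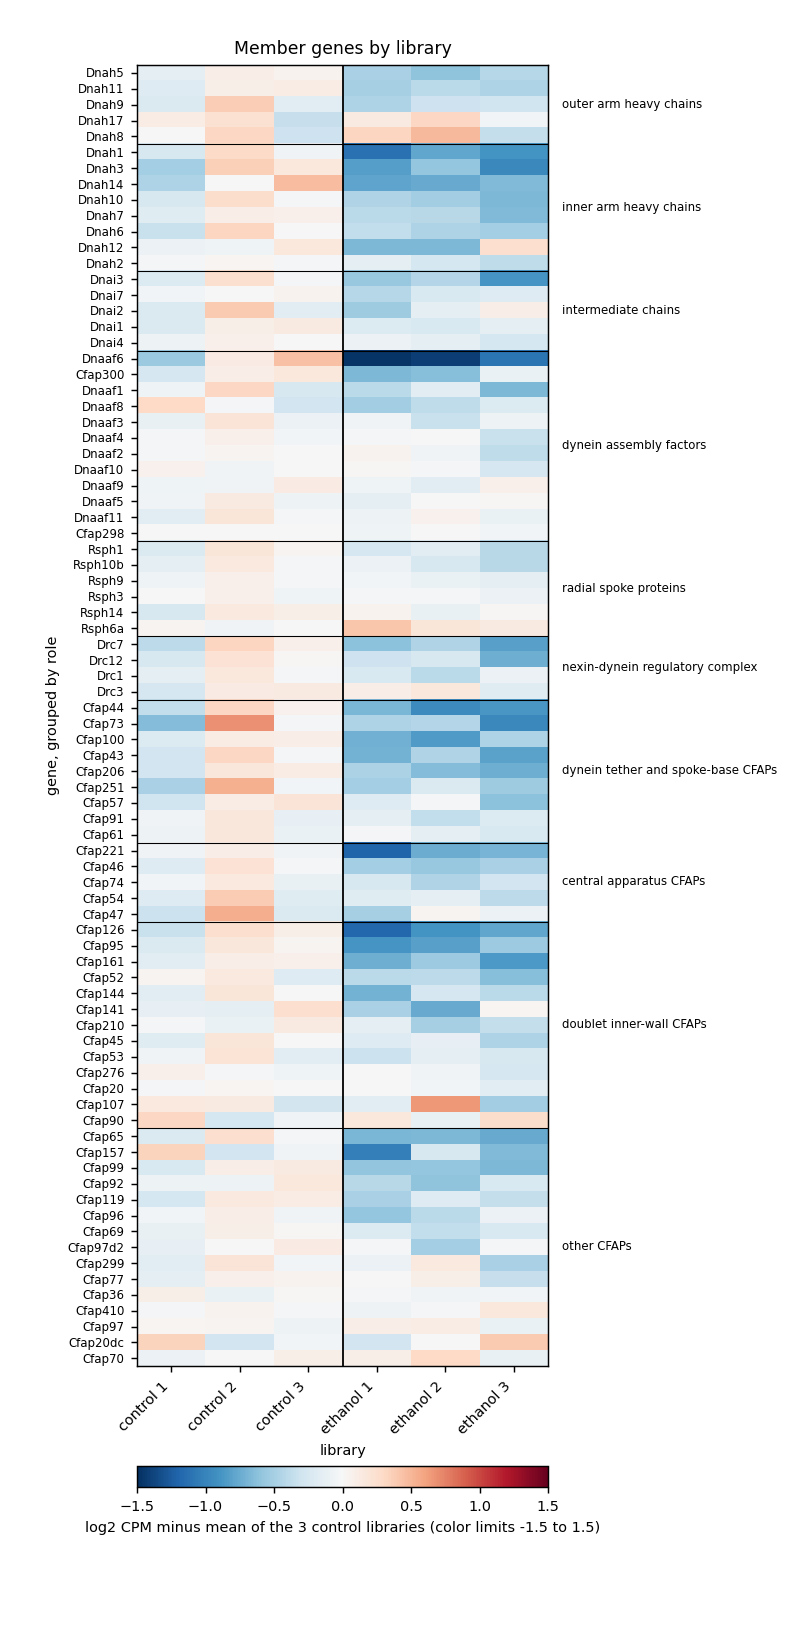
Log2 CPM of each of the 82 genes (rows, grouped by role) in each library (columns) minus the mean of the 3 control libraries, on a color scale from -1.5 to 1.5. The ethanol columns are mostly blue and the control columns paler, and control 2 is the highest control in 56 genes.

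Genes of the motile cilium outside the symbol families gave similar values. They were listed with earlier results of these data known and measured in the same 6 libraries, so they are not independent support. From a list of such genes, which includes tektins, central pair and radial spoke genes with other names and dynein light chains, 98 were matched and 94 tested. Fold changes were below 0 in 89 of the 94 genes, with a median of -0.30. A total of 44 (46.8%) were lower and 0 higher at an unadjusted p below 0.05, against 2.58% and 1.57% of all genes tested. In 44 genes all ethanol libraries lay below all controls, against 5.19% of all genes. Without control 2 the count of lower genes was 25, against 2.03% of all genes. Their summed CPM was 815, 915.5 and 864 in control and 764, 730 and 735.5 in ethanol libraries. In the list of regulators of multiciliated cells, 3 of 12 tested genes were lower at that threshold and the median was -0.10. Foxj1, the forkhead factor needed for motile cilia, measured 11.9, 17.1 and 15.5 CPM in control and 8.70, 9.16 and 13.9 CPM in ethanol libraries (-0.48, unadjusted p = 0.0468). Ethanol 3 lay within the control range there. Tp73 (-0.77, unadjusted p = 0.0120) and Myb (-0.69, unadjusted p = 0.00744) were the others, and Rfx2 (-0.26) and Rfx3 (-0.02) had unadjusted p-values above 0.05.

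Markers of choroid plexus epithelium moved with the groups too. By their median they were below control in ethanol 1 and 2, as the ciliary members were, and control 1 was the lowest and control 2 the highest control for both, while the lists differed in ethanol 3. Of 19 tested markers, 19 had fold changes below 0, with a median of -1.75. At an unadjusted p below 0.05, 10 markers (52.6%) were lower, against 2.58% of all genes. Their summed CPM was 863, 1611 and 1276 in control and 129, 179 and 808 in ethanol libraries, and Ttr (transthyretin, the main secreted product of this epithelium) measured 462, 995.5 and 817 CPM in control and 5.42, 4.34 and 425 CPM in ethanol libraries. Relative to the control mean, the median marker was at -3.20 and -2.72 (log2) in ethanol 1 and 2 and at -0.46 in ethanol 3, inside the range of the controls (-0.52 to 0.50). Ethanol 3 was below all controls in 7 of the 19 markers and in 61 of the 82 ciliary members. The share over all genes was not computed for single libraries, so these counts have no baseline. Otx2, a defining factor of the epithelium, was at 0 counts in 5 of 6 libraries. The median of the ciliary members was -0.30 and -0.24 in ethanol 1 and 2 and -0.35 in ethanol 3. In 6 members, Dnah12 among them, only ethanol 3 was not below all controls, as in 10 of the 19 markers. For ethanol 1 and ethanol 2 the same held in 5 and 8 members and in 0 and 0 markers. For the other motile-cilium genes the medians in ethanol 1 to 3 were -0.28, -0.34 and -0.27, with ethanol 3 the nearest to control. The summed CPM of the members was also highest in ethanol 3 among the ethanol libraries (1101, 1087 and 1120). Whether the lists share a cause was not tested.

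**Figure D5:**
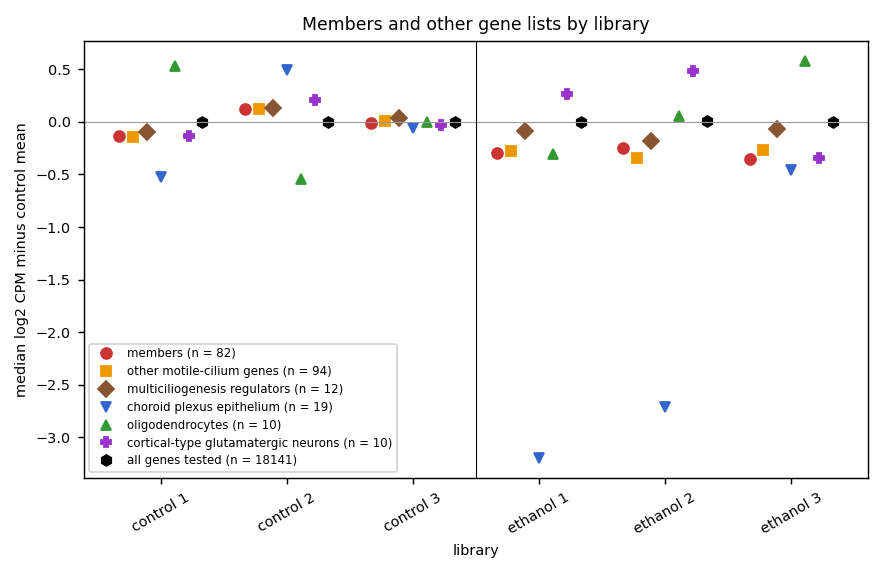
Median log2 CPM minus the control mean (vertical axis) in each library (horizontal axis) for the members, other motile-cilium genes and marker lists, with the number of genes in the key. Members lie at -0.30, -0.24 and -0.35 in the ethanol libraries, whereas choroid plexus markers lie at -3.20, -2.72 and -0.46.

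Markers of ependyma that are not cilium genes (many shared with astrocytes, and Foxj1 with the regulators above) had a median of -0.06 over 10 genes, with Foxj1 and Sox2 lower at an unadjusted p below 0.05. Medians were 0.06 over 10 astrocyte markers, 0.15 over 10 oligodendrocyte markers, 0.13 over 10 cortical-type glutamatergic markers and -0.002 over 12 striatal-type GABA markers. At an unadjusted p below 0.05, Sox9 of the astrocyte list was lower (-0.43) and Tbr1 of the glutamatergic list higher (0.55), both without overlap. No other marker of these lists passed that threshold. These lists were detected in every library, with glutamatergic markers at a summed 2071 to 3101 CPM, and they varied between libraries of a group. The oligodendrocyte markers summed to 8912, 3837 and 6252 CPM in control and 4679, 6451 and 10290 CPM in ethanol libraries, which overlap widely. The part of tissue composition in the lower ciliary values was not tested.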

How the data were processed

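RNA-seq was measured in 6 amygdala libraries, 3 per group. The authors deposited raw counts per gene, without normalization or filtering. Per the file headers these counts came from featureCounts (Subread 1.6.3) with the reverse-stranded setting (2), over exons of the Rnor_6.0 annotation, and reads aligned to several places or shared between genes on a strand were not counted, so close paralogs can be undercounted. The submitters' processing notes also name STAR 2.7.0f and FastQC 0.11.8. Symbols for 29322 of 38445 genes came from a RefSeq table (GRCr8), as did promoter sequences, and gene positions are in Rnor_6.0.

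The analysis used edgeR 4.0.16 (R 4.3.3). Its filterByExpr (10 counts, 15 in total) kept 18141 genes, all 82 members among them, libraries were scaled by TMM (factors 0.976 to 1.01), and groups were compared by its quasi-likelihood test, with p-values adjusted by Benjamini-Hochberg across all genes tested and the study's threshold of 0.2. The SE of a log2 fold change is its size divided by the root of the F statistic. CPM use the effective library sizes, and log2 CPM a prior count of 2. An exact permutation test has 20 label swaps. Assigned reads per library were 62576504 to 70755739, and 3 counts equal 0.0424 to 0.0479 CPM, a floor for counting error only. DESeq2 1.42.0, the edgeR likelihood ratio test and limma-voom (limma 3.58.1) were alternatives among 14 settings. The scripts were tested on simulated data. The authors' supplementary statistics and other assays were not used here.

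The members, roles and marker lists were chosen with earlier results of these data known. Named genes are the 10 members with the smallest p, the 2 of each role with the highest level per kb, the 3 with a positive fold change and the smallest p, and the genes nearest the count rule, and others are named as members of their role.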

Additional observations from a re-analysis of the deposited data

How the results depend on the processing

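With 3 pools a group, the adjusted p-values depend on how a gene's spread is estimated. DESeq2 called 14 members at an adjusted p below 0.2, against 0.413% of all genes. The edgeR likelihood ratio test called 11, against 0.424% of all genes, and 10 members were called by both. Limma-voom called 0 members. The edgeR quasi-likelihood test called 0 under TMM, RLE and library-size scaling and under both other count filters. Leaving out 1 library at a time gave 0 to 1, the 1 being Dnah12 without ethanol 3, where 83 of 18356 genes (0.452%) were called; without ethanol 1, 4 genes were called, none a member, and in the other 4 fits 0 genes. Members lower at an unadjusted p below 0.05 numbered 35 in the main comparison (2.58% of all genes) and 39 under library-size scaling (3.45% of all genes). When 1 library was left out they numbered 26 (without control 2, 2.03% of all genes) to 41 (without control 1, 2.54% of all genes). Of the 26, 25 were among the 35. Across these fits the share of all genes ran from 1.74% (without ethanol 2) to 4.4% (without ethanol 3). The median log2 fold change of the members then ran from -0.36 to -0.21. The other motile-cilium genes lower at that threshold numbered 44, and 25 (without control 2) to 43 (without control 1) with 1 library left out. The cause was not tested.

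Whether replicate numbers pair the libraries cannot be told from 3 libraries a group. Over 14241 genes, deviations from the group means correlated by 0.0264, 0.388 and 0.211 for libraries numbered 1, 2 and 3. For libraries of unlike number the correlations ran from -0.427 (control 2 with ethanol 3) to 0.305 (control 1 with ethanol 3). With the replicate number as a block, 39 members were lower at an unadjusted p below 0.05, against 3.32% of all genes. In that fit 0 members had an adjusted p below 0.2, and the median was -0.28.

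The direction of some members near 0 turned: Cfap410 (-0.0092) and Drc3 (-0.0052) under library-size scaling and Cfap107 (-0.0321) by limma-voom. With 1 library left out, the log2 fold change ran from -0.4101 to 0.3246 for Cfap107, -0.0573 to 0.0621 for Cfap410, -0.0095 to 0.1958 for Cfap70, -0.0255 to 0.2618 for Cfap90, -0.117 to 0.0108 for Dnaaf9, -0.0306 to 0.2431 for Dnah17 and -0.1026 to 0.1196 for Drc3. Gene counts below 100 in total, as for Cfap107, limit what can be seen.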
